A study of Drosophila melanogaster with 12 samples.

Results

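The nuclear genes of the respiratory chain and ATP synthase were followed across 4 genotypes of sorted cells from the adult midgut of Drosophila melanogaster. Members were the genes of the counts table whose FlyBase identifier carried a symbol beginning with ND-, UQCR-, COX, ATPsyn or Sdh, together with Cyt-c1, RFeSP, Cyt-c-p, levy, cype and blw. This gave 69 of 8802 genes, of which 32 belonged to complex I, 5 to complex II, 8 to complex III, 1 to cytochrome c, 11 to complex IV and 12 to complex V. A further 25 symbols that met the rule were not analysed here. The symbol rule also took in Sdhaf3, an assembly factor of complex II rather than a subunit.

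The cells were enteroblasts, progenitors that arise from intestinal stem cells and mature into absorptive enterocytes, sorted by strong GFP signal and large size from the posterior midgut (regions R3 to R5). All flies descended from a cross with the line esg-Gal4, UAS-GFP; tubGal80TS/SM66B, in which the escargot driver acts in progenitors in general and not in enteroblasts alone, and were virgin females aged 9 days of which the last 6 were spent at 29 °C to release the temperature-sensitive Gal80. The groups, with 3 libraries each, were UAS-SvbRNAi (a hairpin against the transcription factor Shavenbaby, a product of ovo), UAS-SvbACT::GFP (its constitutive activator form, here SvbACT), UAS-Svb3Kmut::GFP (labelled as its repressor form, here SvbREP) and a cross to the wild-type strain Canton-S as control. Each library came from a pool of more than 20 females, and replicates were prepared on different days. The control cross alone carried no second UAS transgene, so an effect of the transgene cannot be told apart from one of the strain it came in. By their names, the SvbACT and SvbREP transgenes also carried GFP, the signal used for sorting, unlike UAS-SvbRNAi. An effect of this on the sort was not tested.

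In the respiratory chain, complex I (NADH dehydrogenase) and complex II (succinate dehydrogenase) pass electrons to ubiquinone, complex III passes them on to cytochrome c, and complex IV (cytochrome c oxidase) hands them to oxygen. The proton gradient that complexes I, III and IV build up drives complex V, the ATP synthase, in which protons turn a membrane rotor while a fixed head makes ATP. Most subunits are encoded in the nucleus and a small core in mitochondrial DNA, and both sets are needed for complete enzymes. In the fly midgut, mitochondrial pyruvate use is known to affect the proliferation of intestinal stem cells. The functions named below for single subunits are those of their mammalian counterparts where the fly protein has been studied less.

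Library totals ran from 2186283 counts (SvbREP replicate 3) to 7444253 counts (SvbREP replicate 2), so that 3 counts corresponded to between 0.379 and 1.40 CPM, the counts scaled to a common library size with the TMM factors (trimmed mean of M-values). Counts assigned to the targeted gene were not lower in the libraries labelled svb RNAi than in control. ovo had 61.1, 20.6 and 15.4 CPM in the libraries labelled svb RNAi, against 2.25, 16.3 and 0.279 CPM in control libraries (log2 fold change 2.16 ± 0.83, adjusted p = 0.179, edgeR), while it had 2005, 2037 and 2604 CPM in SvbACT and 1111, 1438 and 1751 CPM in SvbREP libraries. Hairpin, transgene and endogenous reads could not be told apart in the counts, and directions for the first group are those of the libraries labelled svb RNAi. SvbREP replicate 3, the shallowest library, stood apart with long members: relative to the mean over all libraries, the median of members with 1 kb of exon or more was 0.55 higher on the log2 scale, and that of shorter members 0.06 higher. SvbREP replicate 1 showed the opposite order, at 0.02 for long and 0.44 for short members. Other groups had such gaps too. Long and short members stood at -0.15 and 0.28 in svb RNAi replicate 3, at -0.44 and -0.08 in SvbACT replicate 1, and at 0.08 and -0.26 in control replicate 3. Over all tested genes, long and short genes stood at -0.04 and -0.18 in SvbREP replicate 3, and at -0.02 and 0.29 in SvbREP replicate 1.

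**Figure D1:**
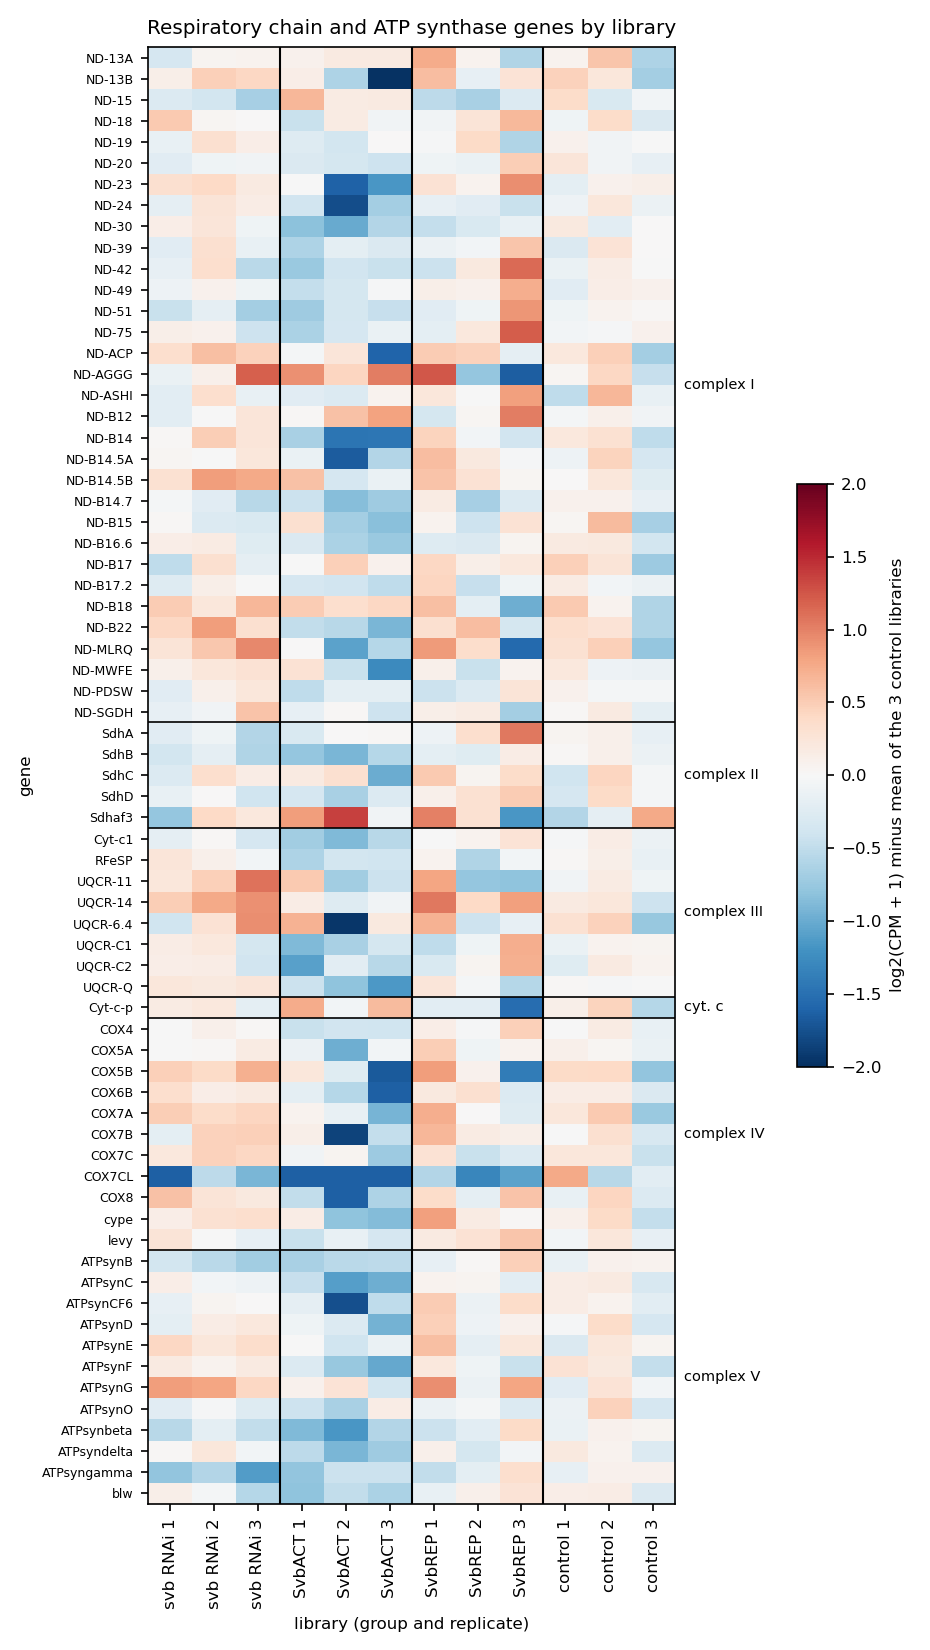
Level of each of the 69 genes (rows, by complex) in each of the 12 libraries (columns), as log2(CPM + 1) minus the mean of the 3 control libraries; red is higher and blue lower than control, and colours saturate at the ends of the scale. Blue predominates in the 3 SvbACT columns, and SvbREP 3 is red for ND-75, ND-42, ND-51 and SdhA and blue for ND-MLRQ and ND-AGGG.

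The most abundant members per length of exon belonged to the ATP synthase. ATPsynC, the subunit that forms the rotor ring in the membrane, led with 565 CPM per kb of exon over all libraries, followed by ATPsynbeta, the catalytic subunit of the head, with 439 and blw, the alpha subunit of the head, with 424. UQCR-C1, a core protein of complex III, reached 168 CPM per kb and cype, a small subunit of complex IV, 160. Complex medians were 142 CPM per kb for complex V, 111 for complex IV, 54.3 for complex III, 37.6 for complex I and 36.5 for complex II, and cytochrome c stood at 121. Within complex I the range was from 14.5 (ND-B14.5A) to 93.2 CPM per kb (ND-15). The lowest members of the other complexes were Sdhaf3 with 3.95, UQCR-11 with 19.1, COX7CL with 2.15 and ATPsyndelta with 26.4 CPM per kb.

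The members took a smaller share of the RNA in SvbACT cells than in any other genotype. They made up 0.586%, 0.531% and 0.540% of the counts in SvbACT libraries, against 0.825%, 0.929% and 0.731% in libraries labelled svb RNAi, 0.859%, 0.871% and 0.993% in SvbREP libraries, and 0.788%, 0.929% and 0.694% in control libraries. The 3 SvbACT values lay below all 9 others. Scaled by TMM, the summed level was 5707 ± 287 CPM in SvbACT, against 7880 ± 611 CPM in libraries labelled svb RNAi, 8837 ± 1124 CPM in SvbREP and 8382 ± 886 CPM in control cells (SD, n = 3 each). SvbACT had the lowest mean of the 4 groups for 57 of the 69 members, where 25.2% of all tested genes had theirs. The exceptions were ND-13A, ND-B17, SdhA, Sdhaf3 and ATPsyngamma (lowest in the libraries labelled svb RNAi), ND-15, ND-B18 and Cyt-c-p (lowest in SvbREP), and ND-AGGG, ND-B12, ND-B14.5B and ATPsynG (lowest in control). In bulk samples of this kind, fewer cells of a type and less RNA per cell cannot be told apart.

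**Figure D2:**
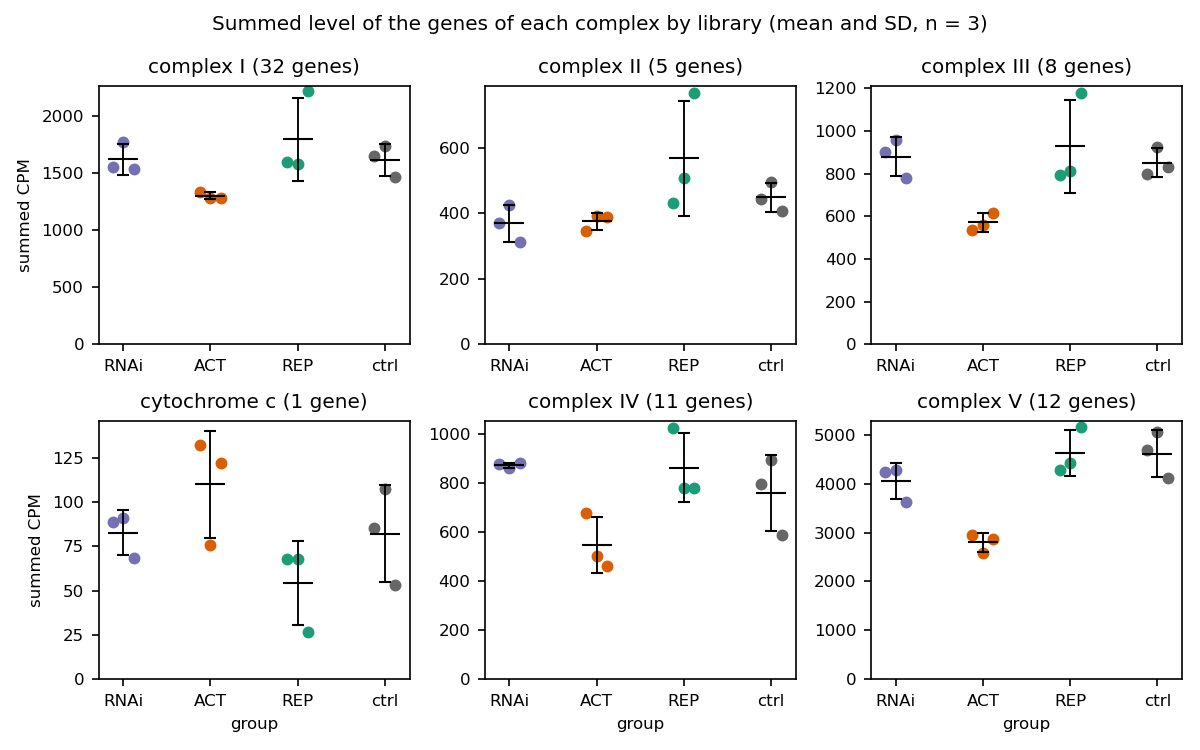
Summed CPM of the genes of each complex by library (points; mean and SD as lines, n = 3), for the libraries labelled svb RNAi, SvbACT, SvbREP and control. SvbACT points lie below all SvbREP points for complexes I to V, and cytochrome c runs the other way.

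For single genes the test was edgeR's quasi-likelihood test over all libraries, with Benjamini-Hochberg adjustment over 8069 tested genes and a threshold of 0.05; a gene past it is said to have risen, fallen or been called, and log2 fold changes carry their SE. Of the 69 members 68 passed the filter on low counts, and COX7CL did not. Comparisons share libraries, so their calls are not independent of each other.

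Set against control, SvbACT cells had called falls in mRNA for single subunits of complexes I, II, III and V. Complex IV had 0 called, though its 10 tested members all lay below 0 (median log2 fold change -0.45). The median of complex II was -0.11. The 5 members that fell were ATPsynC, Cyt-c1, ATPsynbeta, ND-30 and SdhB, that is 5 of 68 tested, where 2.55% of all tested genes fell and 4.46% were called in either direction. At an unadjusted p under 0.05, which 17.0% of all tested genes reached, 24 members were lower and 0 higher. No member was called higher by edgeR or DESeq2, where 1.91% of all tested genes rose by edgeR, and DESeq2, run without the filter, called 8 of 69 members lower, COX7CL among them. Over all 8802 genes DESeq2 called 347 lower and 265 higher. Of the 68 tested members 58 had a log2 fold change below 0, against 50.5% of all tested genes, and the median over members was -0.43, against -0.01 over all tested genes. In 23 members all SvbACT libraries lay below all control libraries and in 1 above, where 13.0% and 10.2% of all tested genes did so. The calls depended on single libraries: 0 members were called without SvbACT replicate 2, without control replicate 1 or without control replicate 2, 1 without control replicate 3, and 3 and 2 without SvbACT replicates 1 and 3, while the median kept its sign, between -0.49 and -0.30. Calls over all tested genes dropped too, from 4.46% to 2.12%, 2.52% and 2.24% without control replicates 1, 2 and 3. Without SvbACT replicates 1, 2 and 3 they were 3.23%, 2.76% and 3.39%.

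Set against SvbREP, the opposite form of the same protein, SvbACT cells had called falls in mRNA for single subunits of complexes I, III, IV and V. Complex II had 0 called, with a median log2 fold change of -0.59 and 3 of its 5 members lower at an unadjusted p under 0.05. The members that fell were Cyt-c1, ATPsynC, ATPsynbeta, COX8, ATPsynB, blw and ND-23, which is 7 of 68 tested, where 3.68% of all tested genes fell. ND-15 was the 1 member that rose, where 3.53% of all tested genes rose and 7.21% were called in either direction. At an unadjusted p under 0.05, which 19.3% of all tested genes reached, 35 members were lower and 2 higher (ND-15 and Cyt-c-p), and DESeq2 called 16 lower and 1 higher. Over all 8802 genes DESeq2 called 462 lower and 364 higher. Of the 68 tested members 62 had a log2 fold change below 0, against 48.9% of all tested genes, among them all tested members of complexes III, IV and V. The median was -0.57 over members and 0.01 over all tested genes. SvbACT and SvbREP libraries did not overlap for 24 members that were lower and 2 that were higher, against 10.1% and 10.7% of all tested genes. Without SvbREP replicate 3, 6 members were called, 3 of them among the 8, and the median was -0.47. No member was called when only the 6 libraries of both groups were fitted, 2 were called without SvbACT replicate 2 or without SvbREP replicate 2, 3 without SvbACT replicate 3 and 14 without SvbREP replicate 1. Over all tested genes 4.49% were called with only both groups fitted, and 5.41% and 5.05% without SvbACT replicates 2 and 3. Without SvbREP replicates 1, 2 and 3 the shares were 7.26%, 4.31% and 6.81%.

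Between SvbREP and control cells 0 members were called by edgeR or by DESeq2, where 2.08% of all tested genes were called by edgeR (168 genes, of which 109, or 1.35% of those tested, were lower; 91 of 167 were lower with no scaling beyond the library total). With the replicate number as a block, which the pairing check allows for this comparison, 290 genes were called, with 0 members among them, and 186 of the 290 were lower. At an unadjusted p under 0.05, which 12.9% of all tested genes reached, UQCR-14 was higher and ND-15 lower. Of the members 23 had a log2 fold change below 0, against 51.6% of all tested genes. The median over members was 0.13, against -0.02 over all tested genes, and ran from -0.01 to 0.30 when 1 replicate was left out. Groups did not overlap for 1 member that was higher and 1 that was lower, against 7.18% and 11.3% of all tested genes. A call missed with 3 libraries a group does not show that these levels were the same in both genotypes.

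Between the libraries labelled svb RNAi and control 1 of 68 members was called, ATPsyngamma, which fell, where 8.50% of all tested genes were called and 6.66% fell (537 of 686 genes; 433 of 653 with no scaling beyond the library total). At an unadjusted p under 0.05, which 19.0% of all tested genes reached, 3 members were higher (ATPsynG, UQCR-14 and ND-B14.5B) and 2 lower (ATPsyngamma and ATPsynB). No member was called higher by edgeR or DESeq2, where 1.85% of all tested genes rose by edgeR and DESeq2 called 253 of 8802 genes higher. Of the members 26 had a log2 fold change below 0, against 48.2% of all tested genes. The median over members was 0.05, against 0.02 over all tested genes; without scaling both shifted, to 0.18 and 0.16. Groups did not overlap for 7 members that were higher and 5 that were lower, against 13.9% and 17.2% of all tested genes. The number of members called was 0 without any one of control replicates 1, 2 and 3 or of svb RNAi replicates 1 and 3. In those fits 4.94% to 6.65% of all tested genes were called, against 8.50% with all libraries.

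**Figure D3:**
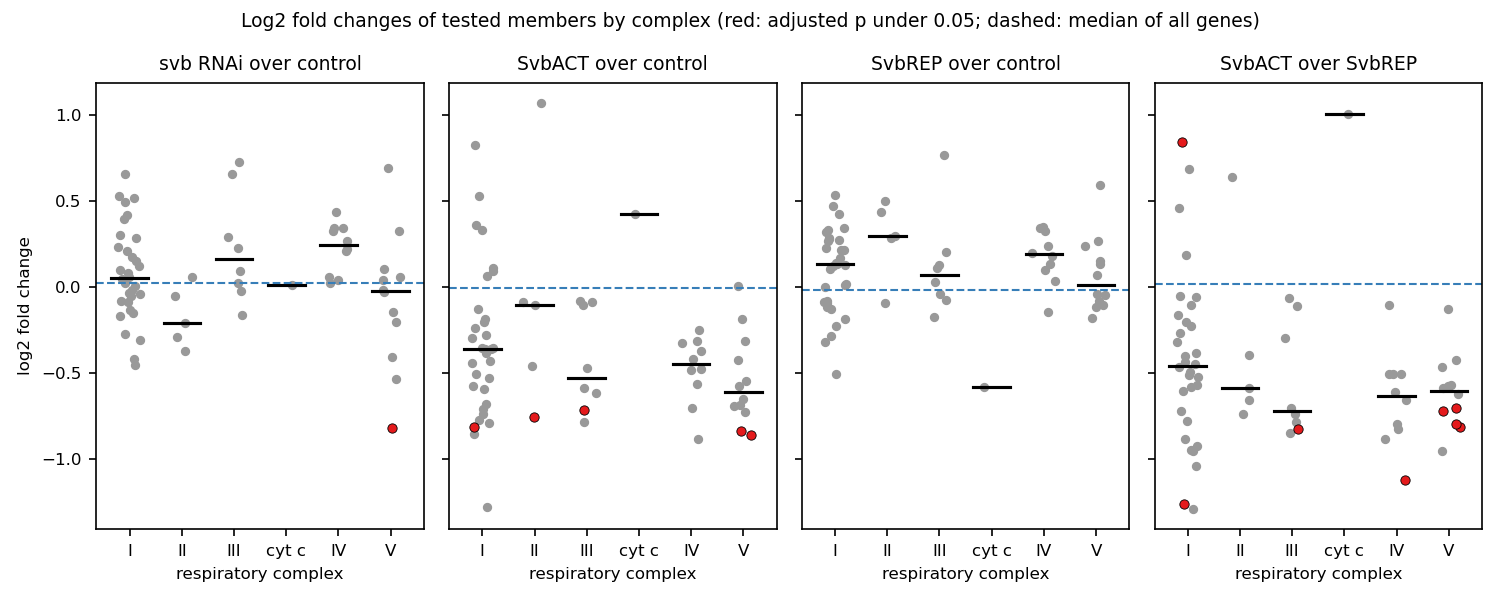
Log2 fold change of each tested member (points), by complex, in the 4 comparisons; red points passed an adjusted p of 0.05 (edgeR), black bars are medians and the dashed line is the median of all tested genes. Both panels with SvbACT first show most points below the line, with Cyt-c-p above it, and the other panels scatter about it.

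Complex V, the ATP synthase, held the most abundant members. Its summed level was 2945, 2585 and 2870 CPM in SvbACT libraries, against 4247, 4280 and 3627 CPM in libraries labelled svb RNAi, 4276, 4435 and 5162 CPM in SvbREP and 4685, 5064 and 4113 CPM in control libraries. All SvbACT libraries lay below the 9 others. The median log2 fold change of its 12 members was -0.62 for SvbACT over control, -0.61 for SvbACT over SvbREP, 0.01 for SvbREP over control and -0.03 for the libraries labelled svb RNAi over control.

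ATPsynC (rotor ring), on chromosome arm 3R from 31216145 to 31219630 on the minus strand (annotation BDGP6.54), had 861, 551 and 600 CPM in SvbACT libraries, against 1244, 1232 and 1022 CPM in SvbREP and 1314, 1339 and 955 CPM in control libraries. The SvbACT libraries overlapped neither group, and the gene fell against both, by 0.84 ± 0.21 against control (adjusted p = 0.027, edgeR) and by 0.80 ± 0.21 against SvbREP (adjusted p = 0.0247). In libraries labelled svb RNAi it had 1303, 1139 and 1111 CPM, all within the control range (-0.02 ± 0.21 over control, adjusted p = 0.977). ATPsynbeta, the catalytic subunit, on chromosome 4 from 1031484 to 1034917 on the plus strand, had 690, 572 and 850 CPM in SvbACT, against 949, 1106 and 1665 CPM in SvbREP and 1172, 1353 and 1323 CPM in control libraries. It fell by 0.87 ± 0.22 against control (adjusted p = 0.0337) and by 0.82 ± 0.22 against SvbREP (adjusted p = 0.0319), again without overlap. The SvbREP mean rested in part on replicate 3, the highest of all 12 libraries. In the libraries labelled svb RNAi ATPsynbeta had 868, 1122 and 908 CPM, all below control, without a call (-0.41 ± 0.22, adjusted p = 0.350).

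blw, the alpha subunit that alternates with beta in the head, had 601, 751 and 678 CPM in SvbACT, against 950, 1131 and 1268 CPM in SvbREP and 1159, 1170 and 863 CPM in control libraries. It fell against SvbREP (-0.72 ± 0.21, adjusted p = 0.0467) and missed the threshold against control (-0.65 ± 0.21, adjusted p = 0.0996), and SvbACT overlapped neither group. ATPsynB, a subunit of the fixed stalk, had 96.5, 105 and 106 CPM in SvbACT, against 135, 155 and 213 CPM in SvbREP and 137, 161 and 160 CPM in control libraries. It fell against SvbREP (-0.71 ± 0.20, adjusted p = 0.0347), but an offset for gene length ended that call (-0.74, adjusted p = 0.0885). ATPsynB was also below every control library in the libraries labelled svb RNAi (118, 104 and 93.7 CPM), at -0.54 ± 0.20 (adjusted p = 0.115).

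ATPsyngamma, the central shaft that turns inside the head, differed from the other subunits of complex V in being lowest in the libraries labelled svb RNAi. It had 160, 184 and 127 CPM there and 159, 204 and 204 CPM in SvbACT, against 246, 293 and 292 CPM in control libraries, both without overlap with control. It fell in the libraries labelled svb RNAi (-0.82 ± 0.22, adjusted p = 0.0259), and in SvbACT it did not pass (-0.55 ± 0.22, adjusted p = 0.201). In SvbREP it had 197, 240 and 350 CPM (-0.08 ± 0.22 over control, adjusted p = 0.942). ATPsyndelta, a small subunit at the foot of the shaft, had 77.3, 58.7 and 68.4 CPM in SvbACT, against 120, 87.6 and 107 CPM in SvbREP and 129, 118 and 92.4 CPM in control libraries, and missed the threshold against control by little (-0.73 ± 0.20, adjusted p = 0.0514). Of its exon length 35.6% is shared with CG2962, and strand use in the counting was not stated. ATPsynG, a subunit at the membrane, stood out in the other direction, with 50.5, 48.8 and 37.5 CPM in the libraries labelled svb RNAi against 23.7, 33.8 and 26.8 CPM in control (0.69 ± 0.30, adjusted p = 0.205).

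**Figure D4:**
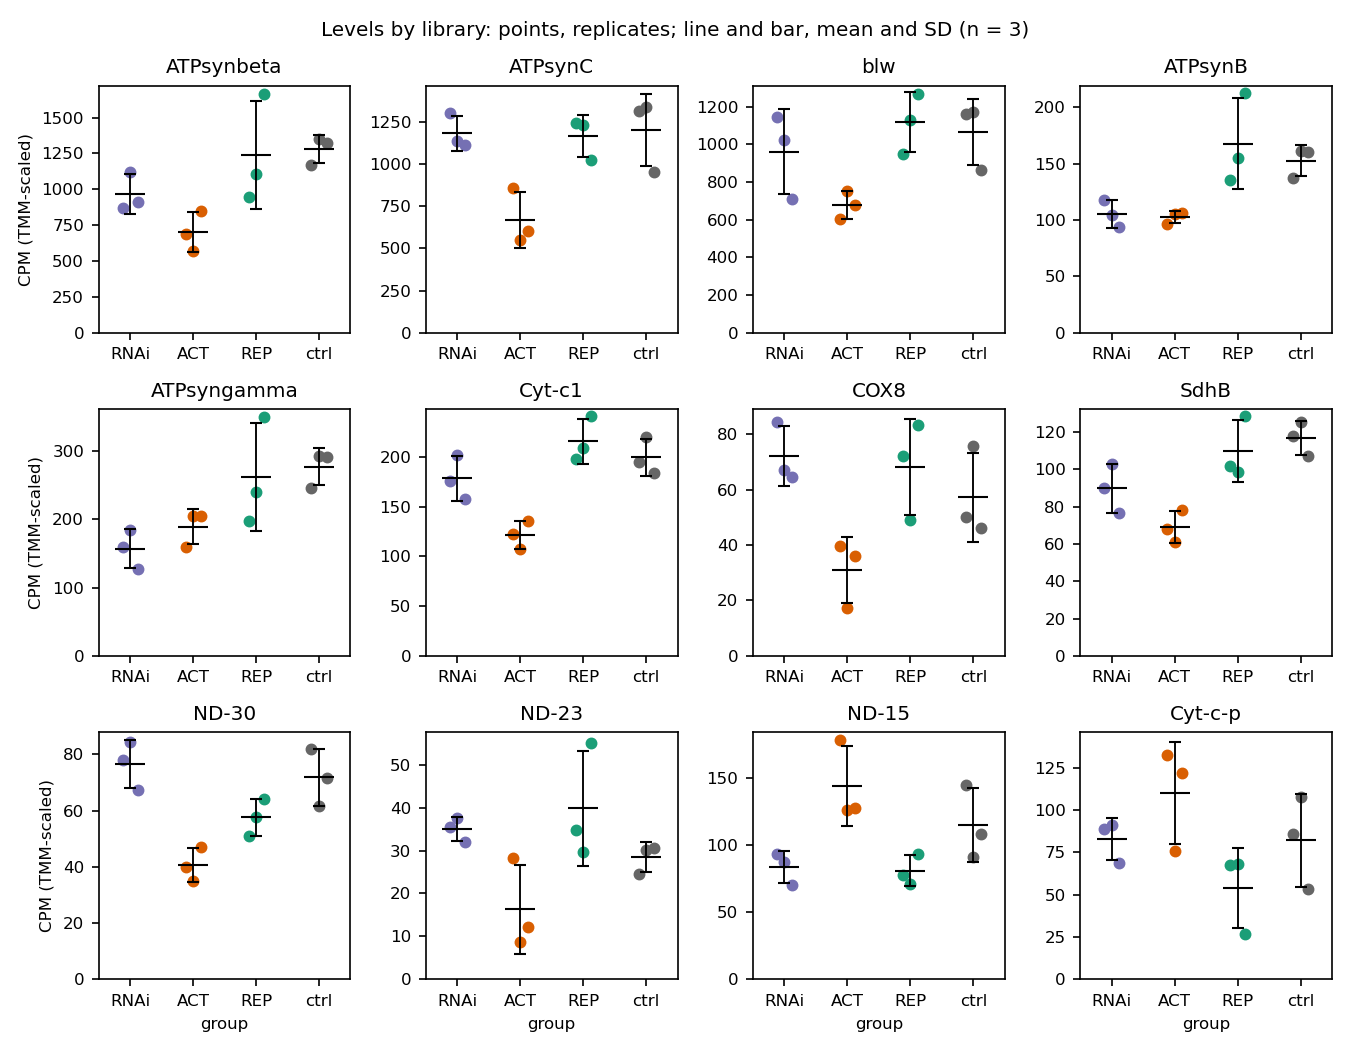
CPM of 12 members in each library (points), with mean and SD (n = 3), in libraries labelled svb RNAi (RNAi), SvbACT (ACT), SvbREP (REP) and control (ctrl); every axis starts at 0. ATPsynC, Cyt-c1, SdhB and ND-30 are lowest on average in SvbACT, ATPsyngamma is lowest on average in the libraries labelled svb RNAi, and ND-15 and Cyt-c-p are highest on average in SvbACT.

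In complex III all 8 members had a log2 fold change below 0 for SvbACT over control (median -0.53) and over SvbREP (median -0.72). Cyt-c1, the haem subunit that hands electrons to cytochrome c, carried the smallest adjusted p of any member. It lies on chromosome arm 3L from 5360211 to 5362798 on the plus strand and had 122, 107 and 135 CPM in SvbACT, against 198, 209 and 241 CPM in SvbREP and 195, 220 and 184 CPM in control libraries. All SvbACT libraries lay below both groups. Cyt-c1 fell by 0.83 ± 0.18 against SvbREP (adjusted p = 0.00828) and by 0.72 ± 0.18 against control (adjusted p = 0.0296). The call against SvbREP held when any single SvbACT or SvbREP library was left out. It was lost when only these groups were fitted (adjusted p = 0.0614, edgeR). None of the other 13 calls of members held without each single library of the groups compared. The call of Cyt-c1 against control was lost with each of the 6 SvbACT and control libraries left out in turn (adjusted p from 0.0516 to 0.148).

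The other members of complex III were not called. UQCR-C1, a core protein, had 157, 185 and 228 CPM in SvbACT, against 203, 274 and 480 CPM in SvbREP and 266, 305 and 304 CPM in control libraries, lower than control without overlap (-0.62 ± 0.26, adjusted p = 0.234). RFeSP, the Rieske iron-sulphur protein, had 41.1, 49.2 and 47.9 CPM in SvbACT against 64.6, 69.5 and 57.8 CPM in control libraries (-0.48 ± 0.22, adjusted p = 0.286). UQCR-14 was higher than control both in the libraries labelled svb RNAi (30.7, 37.0 and 41.6 CPM) and in SvbREP (45.7, 28.8 and 38.8 CPM, against 24.7, 25.6 and 15.9 CPM in control), at 0.72 ± 0.28 (adjusted p = 0.148) and 0.77 ± 0.28 (adjusted p = 0.223). All of its exon length overlaps CG32576, so its counts may include reads of that gene. UQCR-11, the lowest of the complex per length, had 25.7 ± 12.6 CPM in SvbACT, 26.5 ± 19.0 in SvbREP and 27.7 ± 2.76 in control (SD, n = 3 each), with overlap.

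Cyt-c-p, the soluble electron carrier between complexes III and IV, went against its neighbours. It had 132, 75.6 and 122 CPM in SvbACT, against 67.7, 67.8 and 26.6 CPM in SvbREP and 85.6, 108 and 53.0 CPM in control libraries. SvbACT lay above all SvbREP libraries, but the difference missed the threshold (1.00 ± 0.33, adjusted p = 0.0877, edgeR). Cyt-c-p was called higher there with the replicate block (1.11, adjusted p = 0.0264), with the gene-length offset (1.08, adjusted p = 0.0349), with both (1.17, adjusted p = 0.0185) and in the authors' deposited table, and not under the other alternatives (adjusted p from 0.0501 to 0.236). The pairing check did not allow the block for this comparison, since the replicates numbered 2 correlated at -0.0174. SvbACT overlapped control (0.42 ± 0.33, adjusted p = 0.598). In the libraries labelled svb RNAi it had 88.7, 91.3 and 68.5 CPM, within the control range.

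In complex IV all 10 tested members had a log2 fold change below 0 for SvbACT over control (median -0.45) and over SvbREP (median -0.64), and all 10 one above 0 for the libraries labelled svb RNAi over control (median 0.24). COX8, a small membrane subunit, was the 1 member called. It had 39.6, 17.3 and 36.0 CPM in SvbACT, against 72.3, 49.0 and 83.1 CPM in SvbREP and 50.2, 75.7 and 46.0 CPM in control libraries, with no overlap. It fell against SvbREP (-1.12 ± 0.31, adjusted p = 0.0319), though not with an offset for gene length (-1.07, adjusted p = 0.065), and missed the threshold against control (-0.89 ± 0.31, adjusted p = 0.126).

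COX4, one of the first nuclear subunits to join the complex, was tight in SvbACT, with 62.1, 64.4 and 64.2 CPM in SvbACT, against 92.6, 83.0 and 118 CPM in SvbREP and 83.9, 94.5 and 76.5 CPM in control libraries. SvbACT lay below both without a call (-0.62 ± 0.19 over SvbREP, adjusted p = 0.067; -0.42 ± 0.19 over control, adjusted p = 0.276). levy, the fly subunit 6A, had 57.6, 71.5 and 62.5 CPM in SvbACT against 89.3, 97.1 and 117 CPM in SvbREP libraries (-0.66 ± 0.21, adjusted p = 0.0649). cype, the fly subunit 6C, and COX5A overlapped between these groups (-0.83 ± 0.30, adjusted p = 0.120, and -0.51 ± 0.24, adjusted p = 0.245). COX6B, second in the complex per length, had 106, 81.0 and 38.3 CPM in SvbACT against 134, 134 and 99.1 CPM in control libraries, with overlap (-0.70 ± 0.29, adjusted p = 0.206).

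The subunit 7C occurs as a pair of genes. COX7C had 35.6 ± 9.66 CPM in SvbACT, 53.6 ± 5.00 in libraries labelled svb RNAi, 38.2 ± 10.9 in SvbREP and 42.3 ± 10.5 in control cells (SD, n = 3 each), with overlap between SvbACT and control. COX7CL was close to the limit of detection, with 0, 0 and 0 counts in SvbACT libraries, 0, 7 and 4 in libraries labelled svb RNAi, 7, 2 and 1 in SvbREP, and 17, 8 and 6 in control libraries. In the SvbACT libraries a count of 0 allows up to 0.497, 0.713 and 0.568 CPM, against 4.24, 1.12 and 1.67 CPM measured in control libraries. COX7CL did not pass the low-count filter of the main test. With DESeq2, run without that filter, it fell in SvbACT against control (adjusted p = 0.0159), and the authors' deposited table lists the same call, while edgeR without the filter did not make it (adjusted p = 0.0688).

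The called subunit of complex II was SdhB, the iron-sulphur protein. It had 67.9, 61.1 and 78.4 CPM in SvbACT, against 102, 98.6 and 129 CPM in SvbREP and 118, 125 and 107 CPM in control libraries, below both without overlap. It fell against control (-0.76 ± 0.20, adjusted p = 0.0364) and narrowly missed the threshold against SvbREP (-0.66 ± 0.20, adjusted p = 0.0523). SdhA, the flavoprotein to which SdhB binds, had 215, 268 and 269 CPM in SvbACT, against 248, 336 and 552 CPM in SvbREP and 278, 287 and 237 CPM in control libraries, overlapping both (-0.09 ± 0.25 over control, adjusted p = 0.919; -0.59 ± 0.25 over SvbREP, adjusted p = 0.191). Whether the changes of SdhA and SdhB differ was not tested. SdhD, a membrane anchor, was lower in SvbACT (26.3, 20.9 and 27.5 CPM) than in SvbREP (36.0, 41.7 and 48.1 CPM) without a call (-0.74 ± 0.27, adjusted p = 0.116). Sdhaf3 had under 5 CPM in every library and overlapped in every comparison.

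Complex I had the most members and, for SvbACT over control and over SvbREP, the smallest shift of the proton-pumping complexes: the median log2 fold change of its 32 members was -0.36 for SvbACT over control, -0.46 for SvbACT over SvbREP, 0.13 for SvbREP over control and 0.05 for the libraries labelled svb RNAi over control. ND-30, a core subunit of the arm that carries electrons, had 39.7, 34.9 and 47.2 CPM in SvbACT, against 51.0, 57.7 and 64.0 CPM in SvbREP and 81.9, 61.7 and 71.7 CPM in control libraries. It fell against control (-0.82 ± 0.21, adjusted p = 0.036), not with an offset for gene length (-0.83, adjusted p = 0.0683), and missed the threshold against SvbREP (-0.50 ± 0.21, adjusted p = 0.205), though the groups did not overlap. ND-23, which holds iron-sulphur clusters near the ubiquinone site, had 28.2, 8.55 and 12.1 CPM in SvbACT, against 34.8, 29.7 and 55.1 CPM in SvbREP and 24.5, 30.2 and 30.7 CPM in control libraries. It fell against SvbREP (-1.26 ± 0.37, adjusted p = 0.048) and overlapped control. The call was lost without SvbACT replicate 2, SvbACT replicate 3, SvbREP replicate 2 or SvbREP replicate 3 (adjusted p from 0.0541 to 0.157).

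ND-15, an accessory subunit, was the member that rose. It had 179, 126 and 128 CPM in SvbACT, against 77.9, 71.2 and 93.4 CPM in SvbREP libraries, without overlap (0.84 ± 0.22, adjusted p = 0.0284). The call was lost without SvbACT replicate 1 (adjusted p = 0.153), SvbREP replicate 1 (adjusted p = 0.0639) or SvbREP replicate 2 (adjusted p = 0.142). Control libraries lay between, with 145, 91.2 and 108 CPM, overlapping both groups (0.33 ± 0.22 for SvbACT over control, adjusted p = 0.516; -0.51 ± 0.22 for SvbREP over control, adjusted p = 0.336). In the libraries labelled svb RNAi it had 93.1, 87.4 and 70.5 CPM (-0.46 ± 0.22 over control, adjusted p = 0.283). The annotated gene runs from 114726 to 156030 on the plus strand of chromosome arm 2L with 1135 bases of exon, of which 180 overlap Pus10 and CG3436.

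ND-75, ND-51, ND-49 and ND-42 of complex I had lower means in SvbACT than in SvbREP without a call, and SvbREP replicate 3 was the highest of all libraries for each of the 4. ND-75, which carries iron-sulphur clusters, had 126, 156 and 179 CPM in SvbACT, against 172, 228 and 457 CPM in SvbREP and 189, 193 and 209 CPM in control libraries (-0.89 ± 0.29 over SvbREP, adjusted p = 0.0758). ND-51, the subunit that binds NADH, had 86.4, 111 and 102 CPM in SvbACT, against 121, 133 and 264 CPM in SvbREP and 134, 150 and 144 CPM in control libraries (-0.78 ± 0.26 over SvbREP, adjusted p = 0.0824). ND-49, beside the ubiquinone site, and ND-42, an accessory subunit, showed -0.61 ± 0.21 (adjusted p = 0.109) and -0.96 ± 0.32 (adjusted p = 0.0901).

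Long and short members were examined apart because of SvbREP replicate 3. For SvbACT over control the median was -0.37 over 44 tested members with under 1 kb of exon and -0.52 over 24 longer ones, against 0.06 and -0.01 over all tested genes of those lengths. For SvbACT over SvbREP the medians were -0.51 and -0.61, against -0.05 and 0.02. Both length classes lay below 0 in both comparisons.

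The 13 subunits encoded in mitochondrial DNA, which pair with the nuclear members in complexes I, III, IV and V, were not called in any comparison: the count was 0 by edgeR, 0 at an unadjusted p under 0.05 and 0 by DESeq2. Their summed level was 8345, 8157 and 6691 CPM in SvbACT, against 18524, 5936 and 8348 CPM in SvbREP and 9300, 9220 and 13421 CPM in control libraries, and varied more within SvbREP than between any of the group means. The median was -0.12 for SvbACT over control and -0.51 for SvbACT over SvbREP, where all 13 lay below 0. Of 11 tested assembly factors of the chain, Sdhaf3 among them, 0 were called by edgeR or DESeq2 in any comparison. At an unadjusted p under 0.05, 1 was higher, for SvbACT over SvbREP, where 19.3% of all tested genes reached it.

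The TCA cycle and pyruvate dehydrogenase make the NADH and succinate that feed the chain. Of 14 tested genes of the TCA cycle and pyruvate dehydrogenase, 4 fell for SvbACT over control and 7 for SvbACT over SvbREP, where 2.55% and 3.68% of all tested genes fell, with medians of -0.55 and -0.76. For the libraries labelled svb RNAi over control all 14 had a log2 fold change below 0 (median -0.24), where the median over members was 0.05. Of the 14, 2 were called lower, where 6.66% of all tested genes fell. Ogdh, the oxoglutarate dehydrogenase, had 272, 359 and 284 CPM in SvbACT, against 478, 635 and 842 CPM in SvbREP and 611, 607 and 703 CPM in control libraries (-1.07 ± 0.21 over control, adjusted p = 0.00525). Pdhb, the beta subunit of pyruvate dehydrogenase, fell by 1.02 ± 0.21 against control (adjusted p = 0.00757) and by 1.22 ± 0.21 against SvbREP (adjusted p = 0.00125). Ogdh also fell in the libraries labelled svb RNAi (385, 375 and 332 CPM; -0.82 ± 0.21, adjusted p = 0.0177), together with Pdk, the kinase that inhibits pyruvate dehydrogenase (-0.96 ± 0.20, adjusted p = 0.00416).

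Of 13 tested genes of glycolysis, 1 rose for SvbACT over control and 7 for SvbACT over SvbREP, where 1.91% and 3.53% of all tested genes rose, with medians of 0.43 and 0.99. Hex-A, the hexokinase that starts glycolysis, had 2072, 1362 and 1916 CPM in SvbACT, against 199, 149 and 118 CPM in SvbREP and 263, 263 and 243 CPM in control libraries (2.80 ± 0.24 over control, adjusted p = 1.46e-06). Eno, the enolase, and Gapdh2 rose against SvbREP by 1.01 ± 0.19 (adjusted p = 0.00238) and 1.22 ± 0.26 (adjusted p = 0.00765). Ldh, the enzyme that makes lactate, ran against these, with 5.80, 1.19 and 10.4 CPM in SvbACT, against 32.0, 24.2 and 11.2 CPM in SvbREP and 17.7, 32.4 and 7.53 CPM in control libraries. It was not called by edgeR over control (-1.72 ± 0.65, adjusted p = 0.193) or over SvbREP (-1.96 ± 0.65, adjusted p = 0.105), and DESeq2 called it lower in both (adjusted p = 0.0404 and 0.00856). In the libraries labelled svb RNAi 2 glycolytic genes rose, Pfk (1.09 ± 0.27, adjusted p = 0.0142) and Ldh (2.61 ± 0.62, adjusted p = 0.0195), where 1.85% of all tested genes rose. Between SvbREP and control 0 genes of either list were called by edgeR or DESeq2. At an unadjusted p under 0.05, which 12.9% of all tested genes reached, 6 glycolytic genes were lower and 2 TCA cycle genes higher.

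**Figure D5:**
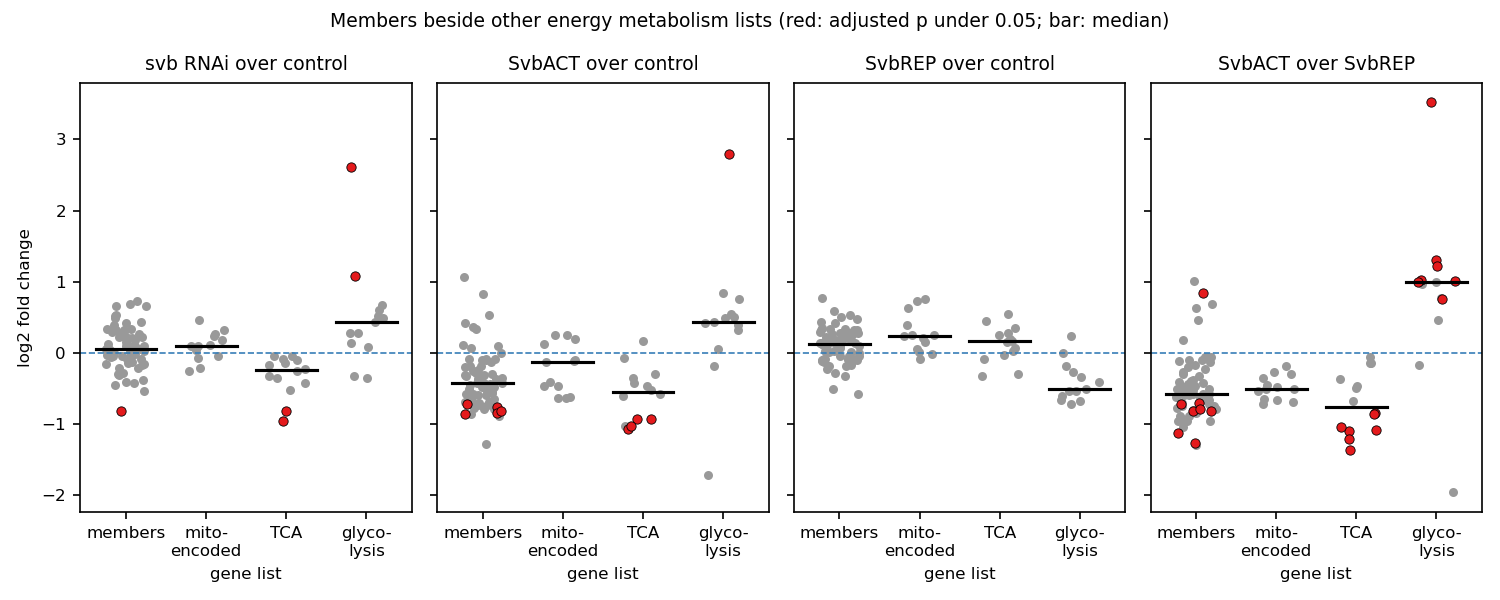
Log2 fold changes of the tested respiratory chain and ATP synthase genes (members), mitochondrially encoded subunits, TCA cycle and glycolysis genes in the 4 comparisons (red, adjusted p under 0.05, edgeR; bar, median). For SvbACT over SvbREP the medians are -0.57, -0.51, -0.76 and 0.99.

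Among regulators of mitochondrial content, ewg, the fly counterpart of nuclear respiratory factor 1, rose in SvbACT, with 274, 237 and 251 CPM, against 99.2, 94.7 and 99.0 CPM in SvbREP and 142, 120 and 139 CPM in control libraries (0.92 ± 0.17 over control, adjusted p = 0.0043). srl, the fly member of the PGC-1 family, rose in the libraries labelled svb RNAi (265, 284 and 304 CPM, against 161, 204 and 129 CPM in control; 0.79 ± 0.23, adjusted p = 0.0434). PolrMT, the mitochondrial RNA polymerase, fell for SvbACT over SvbREP (-0.67 ± 0.20, adjusted p = 0.0464). Of the 13 genes of that list tested, these were the ones called. Further calls were aralar1 (lower) among 8 carriers and Prx2 (higher) among 5 antioxidant enzymes in the libraries labelled svb RNAi over control, and Prx3, a mitochondrial peroxiredoxin, lower for SvbACT over SvbREP. Over all tested genes 8.50% were called in the former comparison and 7.21% in the latter. Of 8 genes of mitochondrial dynamics and quality control 0 were called by edgeR in any comparison. At an unadjusted p under 0.05, 1 was lower for SvbACT over control, 1 was lower for SvbACT over SvbREP (also by DESeq2) and 1 was higher for SvbREP over control. All tested genes reached that level in 17.0%, 19.3% and 12.9% of cases, in the same order.

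Some markers of other cell types differed between the genotypes too. The summed level of 6 enterocyte markers was 409 to 579 CPM in SvbACT, 288 to 387 in libraries labelled svb RNAi, 828 to 1024 in SvbREP and 555 to 697 in control libraries; Myo31DF fell for SvbACT over SvbREP and in the libraries labelled svb RNAi, and Myo61F for SvbACT over SvbREP. Myo31DF carried most of the sum, with a mean of 241 of 332 CPM in the libraries labelled svb RNAi. Myo61F averaged 57.1 CPM in SvbACT, 64.8 in libraries labelled svb RNAi, 148 in SvbREP and 64.3 in control, and nub averaged 6.17, 18.1, 14.8 and 18.7 CPM in the same order. Jon65Aiii, betaTry and Amy-d went the other way, with means of 5.26, 5.25 and 3.46 CPM in SvbACT against 1.80, 0.143 and 2.06 in SvbREP. Of the 5 enterocyte markers tested, 3 had a log2 fold change below 0 and 2 above 0 for SvbACT over SvbREP. Summed over 9 genes, muscle markers were 30.9 to 38.1 CPM in SvbACT, 13.0 to 19.7 in libraries labelled svb RNAi, 11.8 to 21.0 in SvbREP and 25.5 to 67.4 in control libraries. Mhc was called lower for SvbREP over control and wupA higher for SvbACT over SvbREP. Of the 6 muscle markers tested, 5 lay below 0 and 1 above 0 for SvbREP over control. For SvbACT over SvbREP 3 lay below 0 and 3 above 0, with Tm2 the lowest at -3.06. Summed over 9 genes, enteroendocrine markers were 14.3 to 48.9 CPM in SvbACT, 14.5 to 24.2 in SvbREP and 9.24 to 52.2 in control libraries. In the libraries labelled svb RNAi the sums were 51.4, 70.0 and 235 CPM, overlapping control, with 0 of these markers called. NPF was called higher for SvbACT over control and over SvbREP, with 14.2, 4.51 and 0.379 CPM in SvbACT libraries and 0 in every control library. Of the 7 enteroendocrine markers tested, 4 lay above 0 and 3 below 0 for SvbACT over control. Over SvbREP 5 lay above 0 and 2 below 0. CCHa1 was the lowest in both, at -5.60 and -4.25, with 0 CPM in every SvbACT library. The 5 progenitor markers measured summed to 4789 to 5365 CPM in SvbACT, 2719 to 3190 in libraries labelled svb RNAi, 3251 to 3611 in SvbREP and 3935 to 4633 in control libraries, with esg and Dl not analysed here. Sox100B, Egfr and klu were called lower in the libraries labelled svb RNAi over control, and Egfr higher for SvbACT over SvbREP. In the former comparison 3 of the 5 progenitor markers lay below 0 and 2, N and Sox21a, above 0. N had 931, 934 and 900 CPM in the libraries labelled svb RNAi, against 771, 788 and 839 CPM in control libraries. For SvbACT over SvbREP 1 lay below 0 and 4 above 0. Tracheal markers reached at most 4.86 CPM, and the 4 haemocyte and fat body markers summed to 13.1 to 46.4 CPM. Of these srp had 10.3 to 38.7 CPM and Hml was at 0 in every library. The part of cell composition in the members' levels was not tested.

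The authors' deposited table lists 8 members as lower for SvbACT over control, 16 as lower and 2 as higher for SvbACT over SvbREP, 0 for SvbREP over control and 1 as lower for the libraries labelled svb RNAi over control, where 6.53%, 9.15%, 3.36% and 9.41% of its genes were called. In the authors' deposited table SvbACT was also set against the svb RNAi group, with 10 members lower and 1 higher, where 10.7% of its genes were called, and a median log2 fold change of -0.46 over the members.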

How the data were processed

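RNA of sorted enteroblasts was measured in 12 libraries made with a kit for small amounts of RNA and read as single reads of 100 nt, per the labels. FastQC 0.11.5, STAR 2.5.2b, HTSeq 0.6.0, edgeR and the build dm6 are named, with no role, in the submitters' processing notes; strand use is not given in the sources used here. The authors deposited whole-number counts per gene (unnormalized), log2 fold changes, p-values of 5 comparisons and a call score of 1, 0 or -1, per the file headers. The fits used the counts; the deposited calls serve for comparison.

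Symbols, positions and exon lengths came from Ensembl annotation release 115 of BDGP6.54, and 8686 of 8802 genes had a symbol. Another gene overlaps exons of 35 members, in 5 of them over at least 20% of exon length. The main test was edgeR 4.0.16 under R 4.3.3 (filterByExpr by group, TMM scaling, glmQLFit with robust estimation, 1 mean per group over all libraries, glmQLFTest, Benjamini-Hochberg adjustment within each comparison). CPM are TMM-scaled. Each SE equals the size of the log2 fold change over the root of the F statistic. Floors of 3 counts cover counting error only, since reads carry no molecular identifiers. The steps were tested on simulated counts.

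Groups came from the sample titles. Same-numbered libraries correlated in their deviations from group means at 0.175, 0.108 and 0.256 for SvbREP and control, all over 0.1, so the numbers were taken to pair that comparison; other comparisons did not meet this in every pair. Labels place replicates on different days without saying that a number names 1 day in all groups. Alternatives changed scaling, filter, tool (DESeq2 1.42.0), libraries in the fit, the block and single replicates; an offset for gene length was added after the data were seen.

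Members and gene lists were chosen with earlier results of these data known. Genes were named by a rule. It took up to 12 called members per direction and comparison, and the 2 highest and the lowest member of each complex per length. It also took 15 listed members, not all of them core subunits, paralogue pairs, and up to 3 called genes per direction for other lists. Members whose groups did not overlap or that had an unadjusted p under 0.05 were also named after their values were seen.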

Additional observations from a re-analysis of the deposited data

How the results depend on the processing

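No called member and no member with an unadjusted p under 0.05 changed sign under any alternative. Of 196 alternative values for the 14 called results, 121 stayed past the threshold and 75 did not. Members called for SvbACT over control were 8 with DESeq2, 8 with the replicate block and 8 with the gene-length offset and the block, against 5, and 0 to 3 when 1 library was left out. For SvbACT over SvbREP they were 15 with no scaling beyond the library total, 17 with DESeq2, 0 with only both groups fitted, 13 with the replicate block (11 lower, 2 higher), 13 with the offset and the block, against 8 (7 lower, 1 higher), and 2 to 14 when 1 library was left out. For the libraries labelled svb RNAi over control they were 0 with no scaling, 2 with only both groups fitted, and 0 to 1 when 1 library was left out, with medians from 0.039 to 0.20. Medians when 1 library was left out ran from -0.49 to -0.30 for SvbACT over control and from -0.65 to -0.47 for SvbACT over SvbREP. All genes called were 1091 with only both groups fitted for the libraries labelled svb RNAi over control (407 to 549 when 1 library was left out), 612 with DESeq2 for SvbACT over control (175 to 279), 317 with DESeq2, 290 with the replicate block and 255 with offset and block for SvbREP over control (54 to 242), and 340 with only both groups fitted for SvbACT over SvbREP (355 to 599). In the deviations from group means, 11 of 12 libraries correlated best with their own number, a hint from the data and not from the design. With the replicate block 186 genes were lower for SvbREP over control, against 109. The cause of these differences was not tested. With 2186283 counts in the shallowest library, depth limits the precision of low members such as Sdhaf3 and COX7CL.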
